A study of Mus musculus with 18 samples.

Results

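The 8 cyclin genes that drive the division cycle in mouse, Ccnd1, Ccnd2, Ccnd3, Ccne1, Ccne2, Ccna2, Ccnb1 and Ccnb2, were followed in liver mRNA after antisense knockdown of Mdm2. They were taken by gene symbol, and all 8 of them were found among the 33235 genes of the deposited tables. Livers came from mice given a GalNAc-conjugated antisense oligonucleotide (ASO) against Mdm2, labelled as MDM2 knockdown, or a GalNAc-conjugated control ASO, labelled as wild type. GalNAc is a sugar taken up by the asialoglycoprotein receptor of hepatocytes. The 4 groups were Mdm2 ASO on CDAHFD (5 libraries, replicates 6 to 10), control ASO on CDAHFD (5 libraries, replicates 1 to 5), Mdm2 ASO on HFHC (3 libraries, replicates 6-7, 9 and 10) and control ASO on HFHC (4 libraries, replicates 1, 2, 4 and 5). The 2 HFHC columns for Mdm2 ASO replicates 6 and 7 were the same in every gene, so they enter once, as library 6-7. CDAHFD is known as a high-fat diet without choline and with defined amino acids that causes steatohepatitis, and HFHC is given only by this abbreviation. The strain, sex, age, ASO dose and length of treatment are not given in the sources used here, nor is whether each sample came from a separate animal, so the p-values measure the spread between these samples.

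Cyclins are the regulatory subunits of cyclin-dependent kinases (CDKs). D-type cyclins bind Cdk4 and Cdk6 in G1 and start the phosphorylation of the retinoblastoma protein, E-type cyclins activate Cdk2 at the entry into S phase, cyclin A2 binds Cdk2 and then Cdk1 from S phase into G2, and B-type cyclins activate Cdk1 for mitosis. Most hepatocytes of an adult liver are quiescent, and cyclin D1 is the cyclin best known for bringing them back into the cycle after partial hepatectomy. Mdm2 ubiquitinates p53 and so limits its level, and p53 induces p21, the CDK inhibitor encoded by Cdkn1a, through which the DREAM complex represses G2 and mitotic genes such as Ccnb1 and Ccnb2 at promoter elements called CHR (cell cycle genes homology region).

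The promoters of Ccnb1 and Ccnb2 are shown because these were the members with the lowest shares of their control level on CDAHFD. Each runs from 250 bases before to 50 bases after the transcription start in RefSeq on GRCm38.p6, and capitals mark CCAAT boxes, where NF-Y binds, and the letters TTTGAA or TTTAAA, in which CHR elements have been described.
Ccnb1, chr13:100786437-100786736, minus strand: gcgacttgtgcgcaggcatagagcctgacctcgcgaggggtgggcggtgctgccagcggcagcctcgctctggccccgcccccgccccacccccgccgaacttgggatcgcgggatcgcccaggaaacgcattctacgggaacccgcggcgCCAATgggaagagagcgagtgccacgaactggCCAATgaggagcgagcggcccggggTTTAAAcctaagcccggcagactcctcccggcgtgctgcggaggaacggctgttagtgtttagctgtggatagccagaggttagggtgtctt
Ccnb2, chr9:70421505-70421804, minus strand: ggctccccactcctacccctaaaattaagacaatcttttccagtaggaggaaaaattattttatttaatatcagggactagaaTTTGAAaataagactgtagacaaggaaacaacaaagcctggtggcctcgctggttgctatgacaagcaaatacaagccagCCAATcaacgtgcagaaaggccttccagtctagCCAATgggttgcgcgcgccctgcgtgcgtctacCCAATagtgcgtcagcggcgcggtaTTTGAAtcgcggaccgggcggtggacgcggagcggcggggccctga
In the Ccnb1 promoter, CCAAT began 99 and 67 bases before the start and TTTAAA began 42 bases before it. The Ccnb2 promoter held CCAAT at 87, 54 and 21 bases before the start, and TTTGAA at 167 bases before and 4 bases after it. No match overlapped another. RefSeq promoters were matched for 4 of the 8 members. Beyond the printed ones, the Ccne1 promoter held TTTAAA at 15 bases before the start, and 1 of the 2 Ccnd3 promoters held CCAAT at 108 bases before it. With both strands searched, CCAAT occurred in 37.4% of all 32851 promoters of this length, TTTGAA in 17.9% and TTTAAA in 13.2%. The E2F motifs TTTGGCGC and TTTCGCGC, present in 0.514% and 0.323% of all promoters, were not found in these windows. A match describes the letters only and is no measured binding site.

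Mdm2 itself averaged 647 ± 124 in Mdm2 ASO livers and 1565 ± 87.7 in control ASO livers on CDAHFD, and 362 ± 58.2 against 945 ± 25.6 normalized counts on HFHC (SD). These are 41.3% and 38.3% of the control ASO level. Normalized counts are reads of a gene scaled by a single factor for each library, set within each diet's own table, so levels were not compared between diets. Libraries held 22.4 to 31.5 M reads on CDAHFD and 17.8 to 18.8 M on HFHC. The tissue label was met by its markers: 8 hepatocyte genes, Alb among them, summed to between 1.13 M and 2.25 M normalized counts in every library. A gene was called where limma-trend gave an adjusted p below 0.05 over all genes of a table, and "rose" and "fell" are used only for called genes.

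The B-type cyclins and Ccna2 fell on CDAHFD, and the D-type cyclins Ccnd2 and Ccnd3 rose on HFHC together with Ccne2 and Ccna2. On CDAHFD, Ccna2, Ccnb1 and Ccnb2 fell to 41.6%, 21.4% and 36.1% of the control ASO mean, and the other 5 members did not pass. These 3 of 8 stand beside a background of 6.86% of 16803 tested genes called lower and 6.12% called higher. On HFHC, 4 of 8 members rose, against 16.8% of 17441 tested genes called higher and 13.8% called lower, and the other 4 did not pass. The HFHC count was 2, Ccnd2 and Ccnd3, without Mdm2 ASO replicate 10, without control ASO replicate 4 or with quantile normalization. The median log2 fold change of the 8 members was -0.25 on CDAHFD and 0.67 on HFHC, while the median of all tested genes was near 0 on both (-0.00 and -0.01). In bulk liver RNA, fewer cells of a type and less RNA per cell cannot be told apart.

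**Figure D1:**
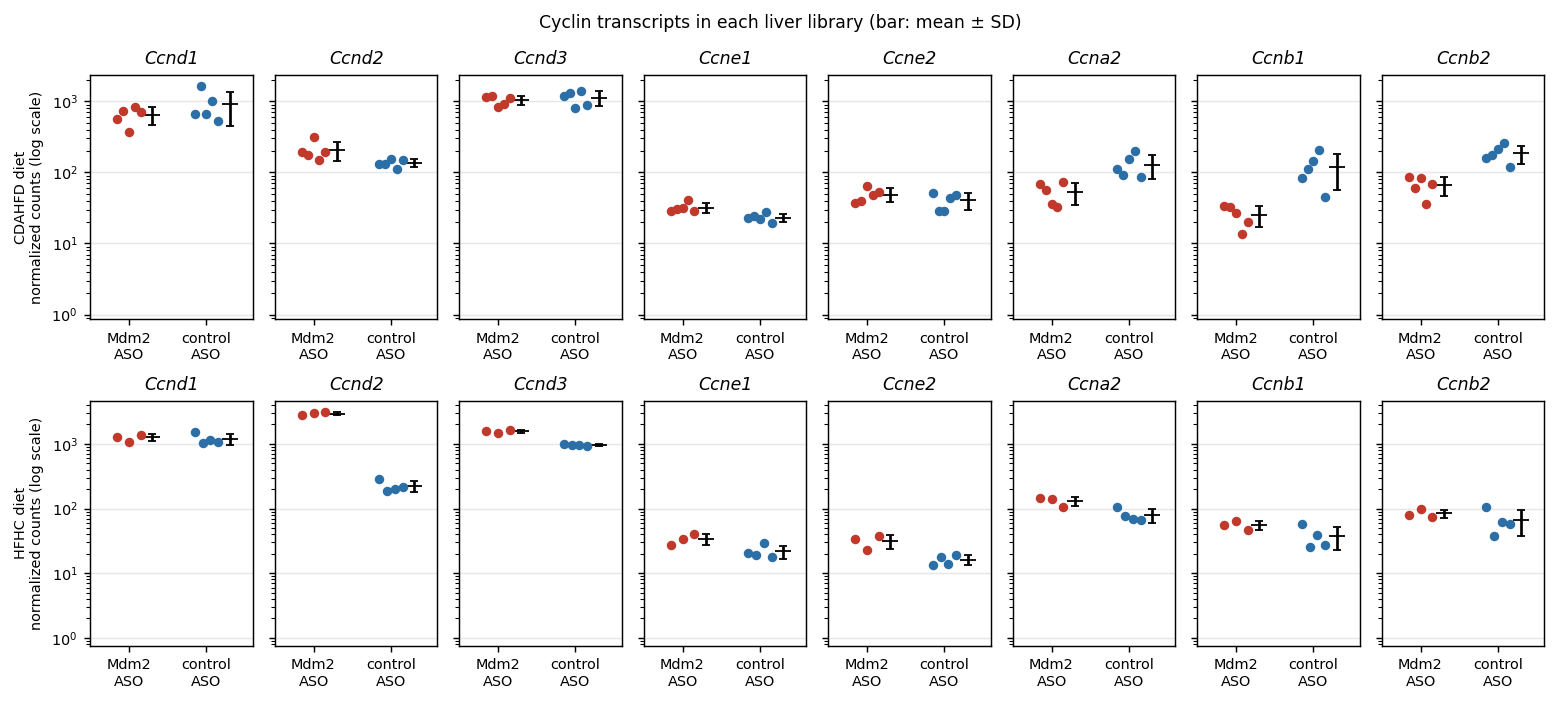
Normalized counts (log axis) of the 8 cyclins in each library, Mdm2 ASO left of control ASO, on CDAHFD (upper row) and HFHC (lower row). Points are libraries and bars mean ± SD. On CDAHFD the Ccna2, Ccnb1 and Ccnb2 points of the groups do not overlap, and neither do those of Ccne1, which was not called. The share of all genes without overlap was not counted. On HFHC the Ccnd2 points average 2951 in Mdm2 ASO livers and 223 in control ASO livers.

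Ccnd2, a D-type cyclin known for its part in the proliferation of B lymphocytes and ovarian granulosa cells, was the member with the largest change. On CDAHFD it had 174, 311, 151, 191 and 197 normalized counts in Mdm2 ASO livers, against 132, 131, 154, 111 and 149 in control ASO livers. The groups overlapped there through Mdm2 ASO replicate 8 alone, whose value lay below the highest control value. The log2 fold change was 0.56 ± 0.18 (SE; limma-trend adjusted p = 0.0572), so Ccnd2 was not called on CDAHFD. It passed with edgeR's quasi-likelihood test on the recovered reads (adjusted p = 0.0462), with DESeq2 (adjusted p = 0.0153), with quantile normalization (adjusted p = 0.0478) and without Mdm2 ASO replicate 8 (adjusted p = 0.0422, limma-trend). Over all its alternatives the adjusted p ranged between 0.0153 and 0.136.

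On HFHC the Ccnd2 values were 2971, 3112 and 2770.4 in Mdm2 ASO livers, against 286, 185, 204 and 217 in control ASO livers. The lowest Mdm2 ASO library was many times the highest control library. The means were 2951 ± 172 and 223 ± 43.9 normalized counts (SD, n = 3 and 4), a ratio of 13.2. The log2 fold change was 3.74 ± 0.14 (SE; limma-trend adjusted p = 1.6e-07), with a 95% interval of 3.44 to 4.05.

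Ccnd3, a D-type cyclin needed for the expansion of immature lymphocytes, had 1180.2, 819.6, 918, 1129.5 and 1158 normalized counts in Mdm2 ASO livers on CDAHFD, against 1169, 1327, 800.0, 1401 and 884 in control ASO livers. The groups overlapped throughout, with a log2 fold change of -0.08 ± 0.16 (SE; limma-trend adjusted p = 0.781). On HFHC it had 1479, 1615 and 1585 in Mdm2 ASO livers, against 986, 978, 965 and 935 in control ASO livers. Here the groups lay well apart, and Ccnd3 rose by 0.69 ± 0.07 on the log2 scale (SE; limma-trend adjusted p = 5.1e-05).

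Ccnd1, the cyclin of hepatocyte cycle entry, was called on neither diet. On CDAHFD it had 743, 374, 831, 712 and 570.0 normalized counts in Mdm2 ASO livers, against 657, 1660.0, 667, 1017 and 536 in control ASO livers. The spread among control livers was wide, with replicate 2 well above the rest. The log2 fold change was -0.42 with a 95% interval of -1.01 to 0.17 (limma-trend adjusted p = 0.348). In the HFHC table its values were 1086, 1397 and 1298 in Mdm2 ASO livers, against 1546, 1031, 1153 and 1085 in control ASO livers. The highest and the lowest of these libraries were both control ASO. The log2 fold change was 0.08 with a 95% interval of -0.25 to 0.40 (limma-trend adjusted p = 0.724). LTO1, on the other strand, shares 1100 bases with the exons of Ccnd1, 23.4% of its exonic length, and fell by 0.69 on the log2 scale on HFHC (limma-trend adjusted p = 5.0e-04).

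Because reads scale with transcript length, the D-type cyclins were also compared per kb of exonic length. This length joins all annotated exons of a gene, 4.709 kb for Ccnd1, 9.409 kb for Ccnd2 and 8.775 kb for Ccnd3. It can exceed the length of the transcript present in liver, which was not measured, so the shares of different genes depend on this divisor. On CDAHFD, Ccnd2 made up 8.36 ± 4.38% of the summed D-type level in Mdm2 ASO livers and 4.81 ± 1.93% in control ASO livers (SD, n = 5 each). On HFHC its share was 41.4 ± 2.53% in Mdm2 ASO livers and 6.06 ± 0.428% in control ASO livers (SD, n = 3 and 4). Ccnd1 took 35.2 ± 2.53% in Mdm2 ASO livers and 65.3 ± 3.10% in control ASO livers on HFHC, although its own level was not called. The summed D-type level per kb was 715, 811 and 751 in Mdm2 ASO livers on HFHC, against 471, 350.0, 377 and 360.1 in control ASO livers. These shares restate the levels above and carry no test.

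**Figure D2:**
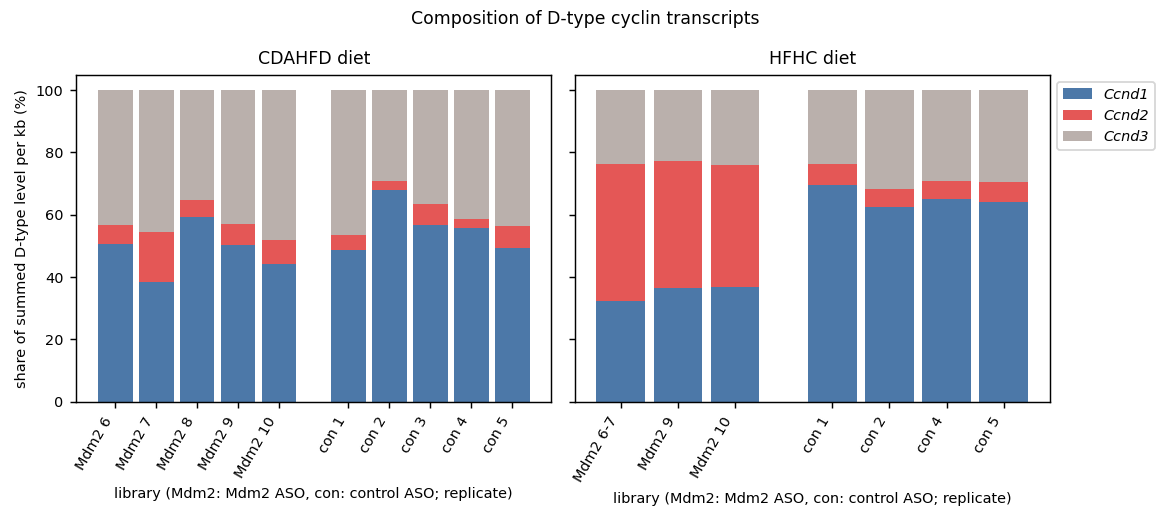
Share (%) of Ccnd1, Ccnd2 and Ccnd3 in the summed D-type level per kb of exonic length, 1 bar per library, on CDAHFD (left) and HFHC (right), Mdm2 ASO bars left of control ASO bars. The Ccnd2 segment averages 41.4% in Mdm2 ASO livers and 6.06% in control ASO livers on HFHC, and is small in both groups on CDAHFD.

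The E-type cyclins had few reads, 13 to 61 for Ccne2 and 17 to 43 for Ccne1 in a library, which limits what can be detected for them. On CDAHFD, Ccne1 had 30.4, 31.4, 40.8, 28.7 and 28.3 normalized counts in Mdm2 ASO livers, against 22.5, 24.0, 22.0, 27.4 and 19.6 in control ASO livers. The groups did not overlap, but the log2 fold change of 0.45 ± 0.24 did not pass (SE; limma-trend adjusted p = 0.229). On HFHC, Ccne1 had 34.3, 40.7 and 27.3 in Mdm2 ASO livers, against 20.6, 19.1, 29.1 and 18.0 in control ASO livers. One control library lay within the Mdm2 ASO range, and the log2 fold change was 0.65 ± 0.27 (SE; limma-trend adjusted p = 0.0969).

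Ccne2 on CDAHFD had 39.8, 63.8, 48.8, 53.6 and 37.3 normalized counts in Mdm2 ASO livers, against 51.5, 28.7, 28.4, 44.3 and 48.6 in control ASO livers. The groups overlapped, with a log2 fold change of 0.29 ± 0.25 (SE; limma-trend adjusted p = 0.499). Its HFHC values were 23.2, 37.8 and 33.3 in Mdm2 ASO livers, against 13.4, 18.0, 14.0 and 19.0 in control ASO livers. All Mdm2 ASO libraries were above all control libraries, and Ccne2 rose by 0.93 ± 0.28 on the log2 scale (SE; limma-trend adjusted p = 0.0310). The call was lost with quantile normalization (adjusted p = 0.108), without Mdm2 ASO replicate 9 (0.140) or 10 (0.0905), and without control ASO replicate 1 (0.0589) or 4 (0.0693, all limma-trend adjusted p). Ints8, on the other strand, shares 609 bases with the exons of Ccne2, 17.4% of its exonic length, and had log2 fold changes of -0.02 on CDAHFD and -0.03 on HFHC.

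Ccna2 encodes cyclin A2, needed for DNA replication and entry into mitosis. On CDAHFD it had 56.6, 35.6, 32.9, 73.7 and 67.9 normalized counts in Mdm2 ASO livers, against 111, 91.6, 152, 201 and 85.1 in control ASO livers. All Mdm2 ASO livers lay below all control livers, and Ccna2 fell by 1.25 on the log2 scale (SE 0.29; limma-trend adjusted p = 0.0122). On HFHC it had 141, 106 and 143 in Mdm2 ASO livers, against 105, 76.3, 68.0 and 66.0 in control ASO livers. The groups touched but did not overlap, and Ccna2 rose by 0.73 ± 0.20 (SE; limma-trend adjusted p = 0.0210). The rise was not called with quantile normalization (adjusted p = 0.0917), without Mdm2 ASO replicate 6-7 (0.0637) or 10 (0.0694), or without control ASO replicate 4 (0.0563) or 5 (0.0569, all limma-trend adjusted p). Exosc9, on the other strand, shares 510 bases with the exons of Ccna2, 12.5% of its exonic length, and fell by 0.51 on the log2 scale on CDAHFD (limma-trend adjusted p = 0.0263). Library preparation was strand-specific per the labels' protocols, while the strand setting of the counting is not given in the sources used here.

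Ccnb1 encodes cyclin B1, the main partner of Cdk1 at the entry into mitosis. On CDAHFD it had 32.5, 27.2, 13.6, 20.1 and 33.9 normalized counts in Mdm2 ASO livers, against 84.8, 113, 144, 208 and 44.9 in control ASO livers. The groups did not overlap, although control replicate 5 came close to the highest Mdm2 ASO liver. The means were 25.5 ± 8.56 and 119 ± 61.7 (SD, n = 5 each), and Ccnb1 fell by 2.10 on the log2 scale (SE 0.37; limma-trend adjusted p = 0.00301). The Mdm2 ASO values rest on 12 to 31 reads a library, against 48 to 258 reads in control ASO livers. Ccnb1 on HFHC had 63.9, 47.3 and 55.6 in Mdm2 ASO livers, against 56.8, 25.8, 38.8 and 27.0 in control ASO livers. The control range reached into the Mdm2 ASO range through replicate 1, and the log2 fold change of 0.64 ± 0.29 did not pass (SE; limma-trend adjusted p = 0.131). It passed without control replicate 1, at 0.87 (limma-trend adjusted p = 0.0295).

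Ccnb2 encodes cyclin B2, the Golgi-associated B-type cyclin. On CDAHFD it had 59.7, 83.7, 36.3, 68.9 and 84.8 normalized counts in Mdm2 ASO livers, against 159.9, 175, 215, 257 and 118 in control ASO livers. The groups lay clearly apart, with means of 66.7 ± 20.0 and 185 ± 53.2 (SD, n = 5 each), and Ccnb2 fell by 1.48 on the log2 scale (SE 0.25; limma-trend adjusted p = 0.00247). On HFHC it had 98.2, 73.8 and 79.8 in Mdm2 ASO livers, against 105, 38.2, 61.5 and 57.0 in control ASO livers. The highest library was a control, and the log2 fold change of 0.44 ± 0.30 did not pass (SE; limma-trend adjusted p = 0.305).

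The response of 5 of the 8 cyclins differed between the diets. Libraries of each diet were normalized on their own and differed in read depth. Diet therefore cannot be told apart from other differences between these sets of libraries. The test was the interaction of ASO and diet, the CDAHFD log2 fold change minus the HFHC one, and in all 5 the CDAHFD response was the lower one, against 13.6% of 16333 genes called lower and 9.83% called higher in this contrast. For Ccnd2 the difference was -3.18 ± 0.25 and for Ccnd3 -0.77 ± 0.21 (SE; limma-trend adjusted p = 1.5e-07 and 0.0133). For Ccna2 it was -1.98 ± 0.41, for Ccnb1 -2.74 ± 0.55 and for Ccnb2 -1.92 ± 0.42 (SE; limma-trend adjusted p = 0.00159, 0.00129 and 0.00286). Only in Ccna2 was there a called change of opposite sign on each diet. For Ccnb1 and Ccnb2 the fall on CDAHFD was called and the HFHC value was not, and for Ccnd2 and Ccnd3 it was the other way round. No difference was called for Ccnd1 (-0.49), Ccne1 (-0.19) and Ccne2 (-0.64; limma-trend adjusted p = 0.404, 0.722 and 0.232). 

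**Figure D3:**
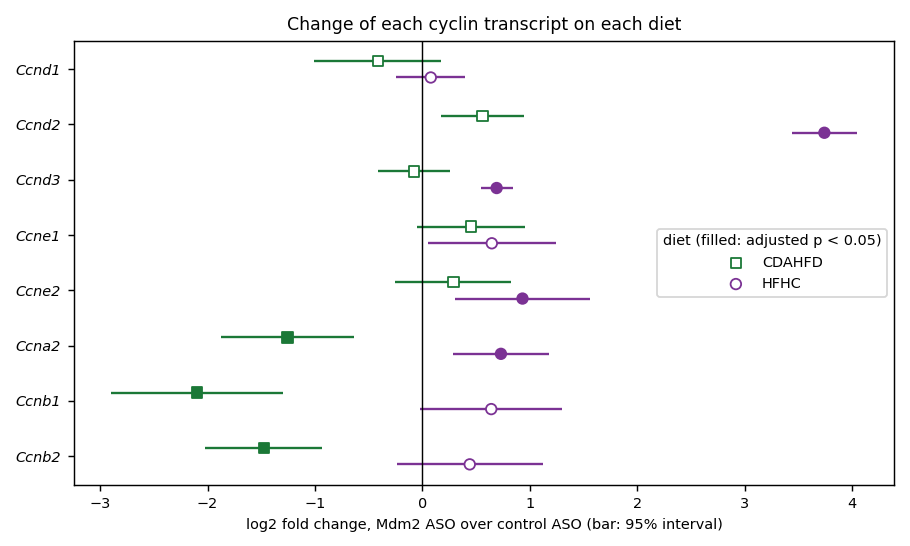
Log2 fold change of each cyclin, Mdm2 ASO over control ASO, with its 95% interval, on CDAHFD (squares) and HFHC (circles); filled symbols passed an adjusted p of 0.05. Ccna2, Ccnb1 and Ccnb2 lie left of 0 on CDAHFD and right of 0 on HFHC, where of these only Ccna2 was called. Ccnd2 on HFHC stands apart at 3.74.

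Levels per kb of exonic length put the members of a group in order. On both diets the order depends on this length, which joins all annotated exons of a gene and can exceed the transcript present. In Mdm2 ASO livers on CDAHFD the order was Ccnd1 (137 ± 38.0 normalized counts per kb), Ccnd3 (119 ± 18.5), Ccnb2 (43.6 ± 13.1), Ccnd2 (21.8 ± 6.59), Ccne2 (13.9 ± 3.08), Ccna2 (13.1 ± 4.53), Ccne1 (12.0 ± 1.93) and Ccnb1 (6.04 ± 2.03, SD, n = 5). In control ASO livers on CDAHFD it was Ccnd1 (193 ± 97.2), Ccnd3 (127 ± 30.3), Ccnb2 (121 ± 34.7), Ccna2 (31.4 ± 11.9), Ccnb1 (28.2 ± 14.6), Ccnd2 (14.4 ± 1.79), Ccne2 (11.5 ± 3.16) and Ccne1 (8.69 ± 1.08, SD, n = 5). Ccnb1 was thus the lowest of the 8 in Mdm2 ASO livers, whereas in control ASO livers its mean lay above those of Ccnd2 and both E-type cyclins. Neighbours such as Ccnd1 and Ccnd3, Ccna2 and Ccnb1, or Ccne2 and Ccna2 did not differ beyond their spread.

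In Mdm2 ASO livers on HFHC, Ccnd2 led with 314 ± 18.2 normalized counts per kb, followed by Ccnd1 (268 ± 33.7), Ccnd3 (178 ± 8.17), Ccnb2 (54.8 ± 8.30), Ccna2 (31.9 ± 5.13), Ccnb1 (13.2 ± 1.97), Ccne1 (12.8 ± 2.52) and Ccne2 (9.00 ± 2.15, SD, n = 3). In control ASO livers on HFHC the order was Ccnd1 (256 ± 49.6), Ccnd3 (110 ± 2.52), Ccnb2 (42.8 ± 18.5), Ccnd2 (23.7 ± 4.67), Ccna2 (19.3 ± 4.45), Ccnb1 (8.80 ± 3.41), Ccne1 (8.16 ± 1.90) and Ccne2 (4.61 ± 0.798, SD, n = 4). Ccnd2 was first among the 8 in Mdm2 ASO livers and below Ccnd1, Ccnd3 and Ccnb2 in control ASO livers, though its range in Mdm2 ASO livers overlapped that of Ccnd1. The lowest 3 members overlapped their neighbours in Mdm2 ASO livers.

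Of 8 genes for CDKs and their partners tested on each diet, 2 fell on CDAHFD, and 1 rose and 1 fell on HFHC. Over all tested genes, 6.12% were called higher and 6.86% lower on CDAHFD, and 16.8% and 13.8% on HFHC. The HFHC counts of this list did not exceed these shares, beside which the counts of all lists below also stand. Cdk1, the kinase of the B-type cyclins, had 73.3, 86.9, 52.2, 68.0 and 89.4 normalized counts in Mdm2 ASO livers on CDAHFD, against 89.0, 118, 235, 178 and 115 in control ASO livers. Its groups overlapped by a narrow margin, and it fell by 0.93 on the log2 scale (limma-trend adjusted p = 0.0264). Cks2, a small CDK-binding subunit, fell by 0.55 (limma-trend adjusted p = 0.0232). On HFHC, Cdk6, a kinase of the D-type cyclins, rose by 0.73 with Ccnd2 and Ccnd3, while Cdk4, the other such kinase, fell by 0.28 (limma-trend adjusted p = 7.3e-05 and 0.0378).

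Among 9 genes for the destruction of cyclins, 3 fell and 1 rose on CDAHFD. Cdc20, the activator of the ubiquitin ligase that removes B-type cyclins, had 49.2, 81.6, 36.3, 39.2 and 73.5 normalized counts in Mdm2 ASO livers, against 150.2, 267, 329, 473 and 110.3 in control ASO livers. The groups did not overlap, and Cdc20 fell by 2.13 on the log2 scale (limma-trend adjusted p = 0.00211), beside Ube2c (-1.25) and Ube2s (-0.51), the ubiquitin-conjugating enzymes of the same ligase. Fbxo31, whose product promotes cyclin D1 degradation, rose by 0.55 (limma-trend adjusted p = 0.0228). On HFHC 0 of these 9 passed with limma-trend, edgeR or DESeq2, and 3 of them had an unadjusted limma-trend p below 0.05.

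Of 13 genes that switch B-type cyclin and Cdk1 activity or transcription, 2 fell on CDAHFD and 3 rose on HFHC. Foxm1, a transcription factor for G2 and mitotic genes, fell by 1.20 on CDAHFD and rose by 1.26 on HFHC (limma-trend adjusted p = 0.0168 and 0.00379). Cdc25c, the phosphatase that activates Cdk1, fell by 1.86 on CDAHFD (limma-trend adjusted p = 0.0168). Mybl2, a transcription factor of the same programme, and Pkmyt1, a kinase that inhibits Cdk1, rose by 1.72 and 1.25 on HFHC (limma-trend adjusted p = 0.00237 and 0.0139).

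Of 10 CDK inhibitors and pocket proteins, 1 rose and 1 fell on CDAHFD, and 8 rose on HFHC. Cdkn1a, which encodes p21, rose by 0.78 on CDAHFD and 0.98 on HFHC (limma-trend adjusted p = 0.00873 and 0.00256), and Cdkn2c, an inhibitor of Cdk4 and Cdk6, fell by 0.52 on CDAHFD (limma-trend adjusted p = 0.0353). Rb1, the retinoblastoma protein on which D-type cyclins act, and its relative Rbl1 rose by 1.45 and 1.25 on HFHC (limma-trend adjusted p = 1.5e-05 and 5.4e-04). The largest log2 fold changes of this list on HFHC were 4.94 for Cdkn2a and 2.71 for Cdkn2b (limma-trend adjusted p = 5.8e-05 and 0.00586). Neither was called on CDAHFD. Among 10 E2F and DP transcription factors, the repressor E2f8 fell by 1.20 on CDAHFD, and 3 rose on HFHC, led by E2f2 (1.23; limma-trend adjusted p = 4.2e-04 and 8.8e-04). The others, E2f1 and Tfdp2, passed narrowly (limma-trend adjusted p = 0.0454 and 0.0463). On HFHC edgeR called 3 genes of this list higher and DESeq2 called 1.

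Of 14 genes of DNA synthesis and proliferation, 2 fell and 1 rose on CDAHFD, and 12 rose on HFHC, with medians of -0.20 and 1.16 on the log2 scale. The other 11 did not pass on CDAHFD. The gene that rose there was Tk1, by 0.73, and it rose by 1.52 on HFHC (limma-trend adjusted p = 0.00993 and 6.4e-05). Mki67, a marker of cycling cells, had 179, 172, 74.8, 142 and 305 normalized counts in Mdm2 ASO livers on CDAHFD, against 305, 382, 473, 493 and 259.9 in control ASO livers, and it fell by 1.23 (limma-trend adjusted p = 0.0151). For Mki67 on HFHC the values were 659, 538 and 544 in Mdm2 ASO livers, against 254, 153, 163 and 196 in control ASO livers, and it rose by 1.62 (limma-trend adjusted p = 1.0e-04). The ratio of Ccnb1 to Mki67 normalized counts was 0.0879 to 0.102 in Mdm2 ASO livers on HFHC and 0.138 to 0.238 in control ASO livers. It was thus lower in all 3 Mdm2 ASO libraries. The same held on HFHC for Ccna2 (0.197 to 0.264 against 0.337 to 0.5) and Ccnb2 (0.137 to 0.149 against 0.25 to 0.415). On CDAHFD the ratio of Ccnb1 to Mki67 was 0.111 to 0.182 in Mdm2 ASO livers and 0.173 to 0.422 in control ASO livers, with overlap. The ratios of Ccna2 and Ccnb2 overlapped there too. These ratios were chosen after the values were seen and carry no test.

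Of the 18 other cyclin genes, 16 were tested on each diet, of which 2 rose and 1 fell on CDAHFD and 3 rose and 2 fell on HFHC. The HFHC counts were near the shares over all tested genes, 16.8% called higher and 13.8% called lower. On CDAHFD these shares were 6.12% and 6.86%. Ccng1, a p53 target, rose by 0.83 on CDAHFD and 0.62 on HFHC, whereas its relative Ccng2 fell by 0.70 and 0.49 (limma-trend adjusted p = 0.00192, 4.1e-04, 0.00126 and 0.00334). Ccnl2, a cyclin tied to splicing, rose by 0.48 on CDAHFD and fell by 0.32 on HFHC (limma-trend adjusted p = 0.0112 and 0.0471).

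**Figure D4:**
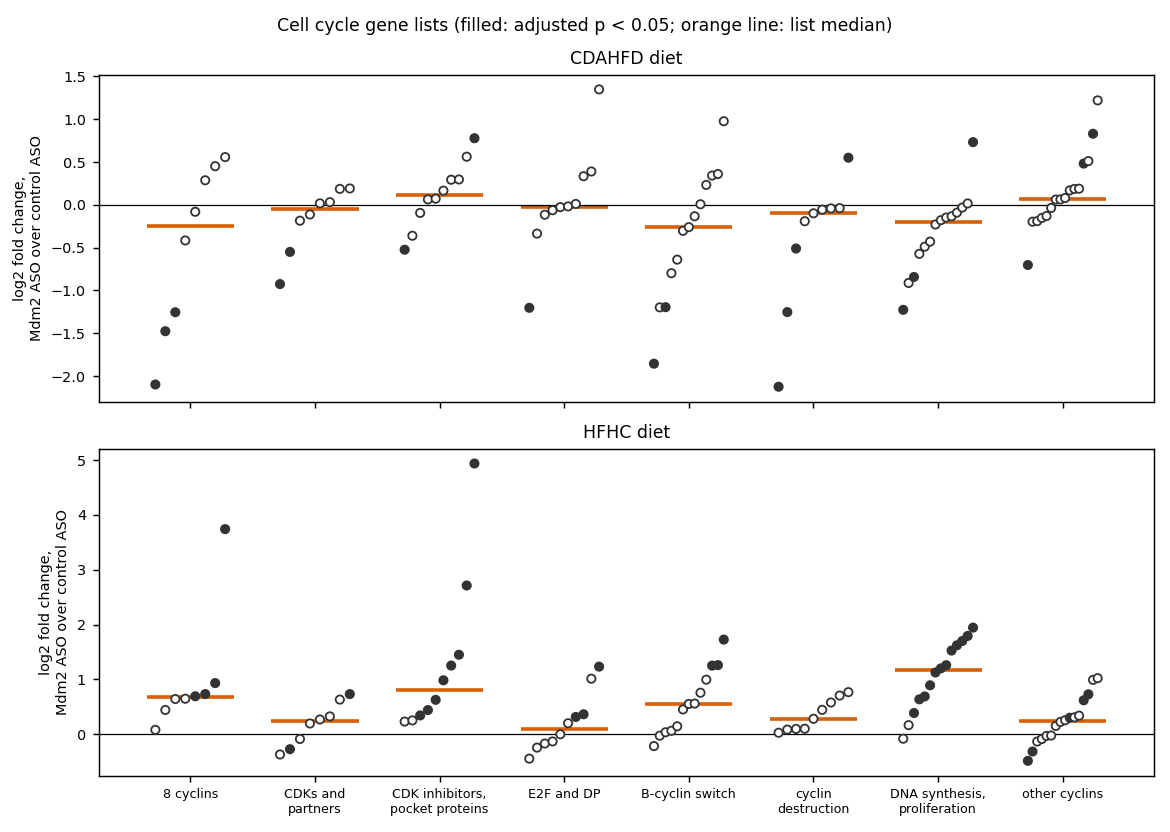
Log2 fold changes, Mdm2 ASO over control ASO, of the tested genes of 8 cell cycle lists on CDAHFD (upper) and HFHC (lower); points are genes, filled where the adjusted p was below 0.05, and lines are list medians. The median of the 14 DNA synthesis and proliferation genes is -0.20 on CDAHFD and 1.16 on HFHC, and that of the 8 cyclins is -0.25 and 0.67.

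Markers of other cells were also called on HFHC, in both directions. The summed level of 10 monocyte and neutrophil markers was 7624 to 9221 normalized counts in Mdm2 ASO livers and 749 to 1163 in control ASO livers on HFHC, with 8 of 10 called higher. Macrophage markers summed to 15650.3 to 20201 against 5094 to 9550.05 (4 of 8 higher), B and plasma cell markers to 2459 to 4516 against 533 to 1492 (5 of 8 higher), and erythroid markers to 7011 to 16719.8 against 1915 to 3489 (7 of 8 higher). Of the other lists on HFHC, 5 of 5 megakaryocyte and platelet, 4 of 6 endothelial, 4 of 6 stellate and 1 of 7 T and NK cell markers were higher, and 4 of 6 cholangiocyte markers were lower. Their part in the changes of Ccnd2, Ccnd3, Ccne2 and Ccna2 was not tested. Of 8 hepatocyte markers, 0 passed with limma-trend, with 0 at an unadjusted p below 0.05 and 0 by edgeR, while DESeq2 called 2 higher and 2 lower.

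On CDAHFD, where Ccna2, Ccnb1 and Ccnb2 fell, the summed monocyte and neutrophil markers overlapped between the groups at 873 to 2126 in Mdm2 ASO livers and 1044 to 1685 in control ASO livers. Of the 10, 0 passed with limma-trend, edgeR or DESeq2, and 0 had an unadjusted p below 0.05. Macrophage markers summed to 3109 to 4897 in Mdm2 ASO livers against 3462 to 6094 in control ASO livers (1 of 8 lower). Megakaryocyte and platelet markers summed to 290.1 to 455 against 223 to 256 (2 of 5 higher), and 1 of 8 B and plasma cell and 1 of 6 stellate markers were higher. Cholangiocyte markers summed to 6279 to 11176 in Mdm2 ASO livers against 3337 to 10827 in control ASO livers. Of these 6 markers, 0 passed on CDAHFD with limma-trend, edgeR or DESeq2, but 5 had an unadjusted limma-trend p below 0.05, and the median log2 fold change of the 6 was 1.07. In the difference between diets, 5 of the 6 cholangiocyte markers were called higher with limma-trend. Of the remaining lists on CDAHFD, 0 of 8 hepatocyte, 0 of 7 erythroid, 0 of 6 endothelial and 0 of 7 T and NK cell markers passed with limma-trend, with 4, 3, 2 and 0 at an unadjusted p below 0.05. By edgeR 1 endothelial marker was called, and by DESeq2 2 hepatocyte, 1 erythroid and 2 endothelial markers. The part of these markers in the fall of Ccna2, Ccnb1 and Ccnb2 was not tested. No marker of the 10 lists was at 0 in every library of a diet.

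**Figure D5:**
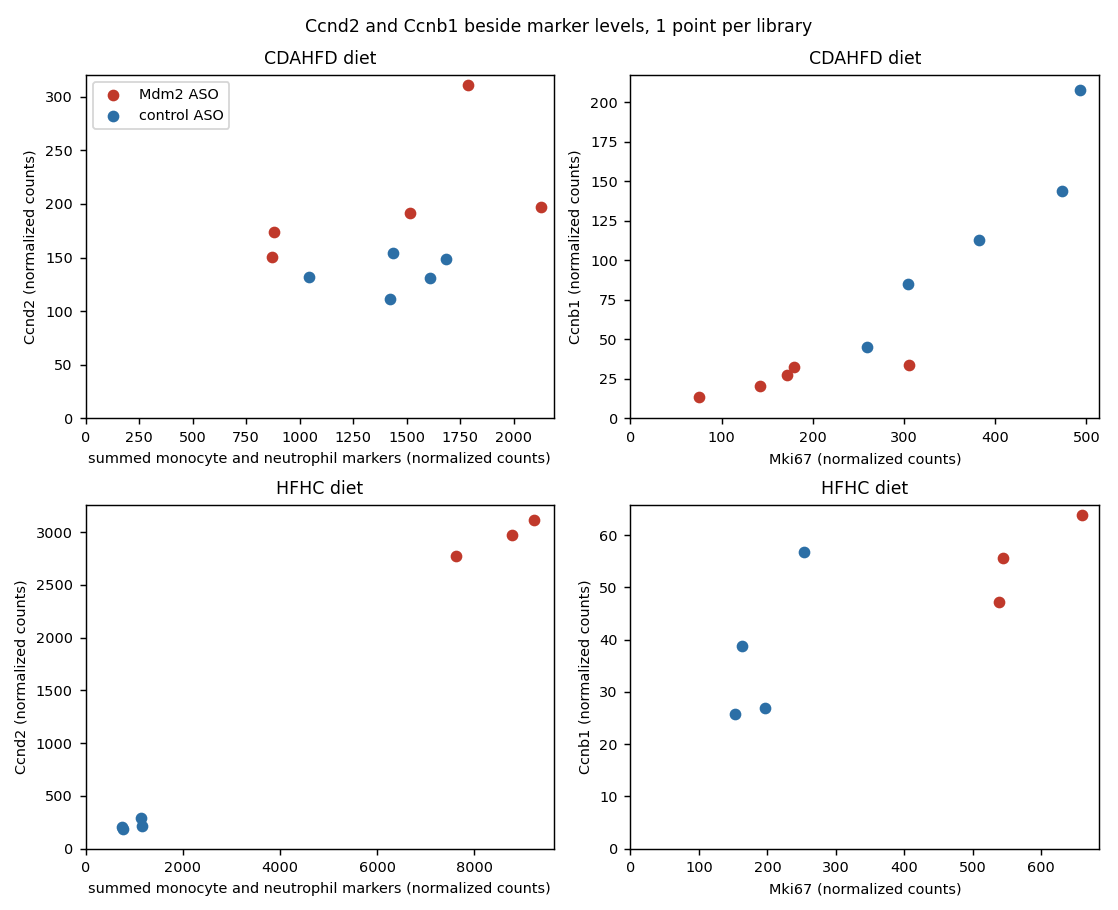
Left, Ccnd2 against the summed level of 10 monocyte and neutrophil markers; right, Ccnb1 against Mki67, all in normalized counts, 1 point per library, on CDAHFD (upper) and HFHC (lower). On HFHC the Mdm2 ASO libraries stand apart from the control ASO libraries on both axes of the left panel, and on CDAHFD all Mdm2 ASO libraries lie below all control ASO libraries on the Ccnb1 axis.

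The genes closest to each cyclin across the 17 libraries were found by the root mean square (RMS) difference of log2 values, centred within each diet, among genes with a mean of at least 50 in both tables. For Ccnd2 these were Pld4 (0.256), Fmnl1 (0.289) and Dok3 (0.295), against a median RMS difference of 1.26 over all genes compared. Ccnd3 was closest to Itm2c (0.135), Tmem131 (0.150) and Depdc5 (0.157), and Ccnd1 to Cmip (0.252), Fbxl17 (0.261) and Elovl2 (0.264). For the E-type cyclins they were Hirip3 (0.182), Hmgxb4 (0.192) and Tet3 (0.194) beside Ccne1, and Ccdc28b (0.245), Cdyl (0.247) and Bach1 (0.247) beside Ccne2. Ccna2 had Racgap1 (0.276), Kif20a (0.293) and Foxm1 (0.310) next to it. Ccnb1 was nearest to Cdc20 (0.303), Ccnb2 (0.370) and Ckap2 (0.403), with a median of 1.01 over all genes compared. Ccnb2 lay closest to Cdca3 (0.301), Knstrn (0.325) and D17H6S56E-5 (0.332). The libraries share the group differences described above, so likeness reflects them as well as the spread within groups.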

How the data were processed

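Liver mRNA of 18 samples was analysed in 2 deposited tables, 1 per diet. Per the submitters' processing notes, alignment used STAR 2.7.10b and GRCm39, and counting used featureCounts (Subread 2.0.3). Deposited values form a signal, TMM-normalized counts per the labels: in each library they were whole multiples of 1 constant (within 0.001), which gives the reads back. The other sample columns numbered 0. Genes that reached 1 in at least the number of libraries of the smaller group were tested on log2(value + 0.5), which understates changes of low genes, with limma-trend 3.58.1 in R 4.3.3 and Benjamini-Hochberg adjustment over all genes of the table, at 0.05. The diets' folds were set against each other as an interaction contrast over 17 libraries. Mdm2 ASO replicates 6 and 7 on HFHC, identical in value, counted as 1 library. The members, gene lists and tests were chosen with earlier results of these data known. Genes named from a list are the called ones with the smallest p, up to 4 per list and diet, and those moving against the majority. The text names some of these, and Cdkn2b outside this rule for its fold change. It also names some of the genes whose exons overlap a member. The overlaps not described above are on the other strand. Bysl shares 4.11% of the exonic length of Ccnd3, and 9330179D12Rik and Gm43126 share 3.91% and 3.95% of that of Ccnd2.

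On the recovered reads, edgeR 4.0.16 called 5335 genes on HFHC and 2186 on CDAHFD, DESeq2 1.42.0 called 5453 and 2956, and limma-trend on the deposited signal 5331 and 2181. GENCODE M21 (GRCm38) gave exonic lengths, as the union of all annotated exons of a gene, and overlaps by Ensembl identifier. The limma-trend, edgeR and DESeq2 fits within each diet were tested on simulated data, as was the limma-trend fit of the difference between diets. The edgeR and DESeq2 fits of that difference and the fits with other scalings were not. Changes in genes with few reads were not tested in this way either. The simulation gave every gene the same relative spread between libraries, beyond counting noise. That spread was smaller than that of, for example, Ccnb1 in control ASO livers on CDAHFD. Alternatives were other pseudocounts, filters, scalings and tools, and leaving out each library.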

Additional observations from a re-analysis of the deposited data

Results flagged for a closer look

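The response to the Mdm2 ASO differed between CDAHFD and HFHC, by the interaction test, in 5 cyclins: the CDAHFD log2 fold change minus the HFHC one was -3.18 for Ccnd2, -2.74 for Ccnb1, -1.98 for Ccna2, -1.92 for Ccnb2 and -0.77 for Ccnd3. These are the differences given in the report, and the cause of none of them was tested.

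In 2 of the 24 groups of 4 or 5 libraries examined for the 8 cyclins, 1 library stood far from the rest. Ccnd2 had 311 normalized counts in Mdm2 ASO replicate 7 on CDAHFD, against 197 or less in the other Mdm2 ASO livers of that diet. Ccne1 had 40.8 in Mdm2 ASO replicate 8 on CDAHFD, against 31.4 or less in the others. Chance alone flags about 5% of such groups.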

How the results depend on the processing

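No paired analysis was possible because Mdm2 ASO and control ASO livers share no replicate number within a diet. Over 480 alternative values for the 8 cyclins, 461 kept their direction and side of the threshold, 10 lost a call, 6 gained one and 3 changed sign. The number of cyclins called on HFHC was 4, but 2 with quantile normalization and between 2 and 4 when 1 library was left out, with 2 without Mdm2 ASO replicate 10 or control ASO replicate 4. On CDAHFD it was 3 or 4, and 5 differed between diets, in all alternatives run. Sign changes came in changes near 0: Ccnd1 on HFHC had log2 fold changes between -0.00091 and 0.20 with 1 library left out, the lowest without Mdm2 ASO replicate 9, and Ccnd3 on CDAHFD between -0.19 and 0.0097, above 0 without Mdm2 ASO replicate 7 (0.0017) or control ASO replicate 4. The cause was not tested.

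On HFHC, quantile normalization moved the median log2 fold change of all genes by -0.11 and scaling to total reads by 0.10, and relative to these shifts Ccna2 was at 0.58 and 0.73 and Ccne2 at 0.77 and 0.93. The share of calls that were higher was 55.0% on HFHC, 40.0% with quantile normalization and 69.8% with total-read scaling, and for the difference between diets 41.9%, 55.4% and 26.6%. All genes called on CDAHFD numbered 2181, against 1426 without Mdm2 ASO replicate 8, 1232 without control ASO replicate 2 and 1459 without control ASO replicate 4. Read depth limits the precision for Ccne1, Ccne2 and, in Mdm2 ASO livers on CDAHFD, Ccnb1.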
